A study of Mus musculus with 24 samples.

Results

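Macrophages from mice with a floxed Smad3 gene were compared with macrophages from mice with a floxed Smad2 gene, both under TGF-β1. The comparison takes 6 of the 24 libraries of the study, 3 from each line, and they were chosen by genotype and treatment alone. The cells were bone marrow-derived macrophages, phagocytes that marrow precursors form in culture, and polyadenylated RNA was sequenced. Tibial marrow came from mice aged 2 to 3 months that are labelled C57BL/6. It was expanded with WEHI-3 conditioned medium, a source of interleukin-3, and with CSF-1, the macrophage growth factor, and the cells were kept without serum for about 16 hours. The treated Smad3fl group has the genotype Smad3 fl/fl and received 10 ng/ml TGF-β1 for 4 hours. The treated Smad2fl group has the genotype Smad2 fl/fl and received the same dose for the same time. Neither group carries Cre, and a floxed gene keeps its exons until the recombinase acts on it. The other groups used here, with 3 libraries each, are the untreated cells of both floxed lines and the treated cells of MyS3KO and MyS2KO mice. These carry the same floxed alleles together with LyzM-Cre, in which the Lyz2 (lysozyme) promoter expresses the recombinase in myeloid cells.

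The floxed gene, the line and whatever came with a line's animals or cultures cannot be told apart, since each line holds 1 floxed gene. Whether a group's 3 libraries are of separate animals is not said in the labels. They also speak of 8 cDNA libraries where 24 samples were deposited. Every p-value therefore measures only the spread between libraries, which may be technical. In bulk RNA, fewer cells that express a gene and less of its RNA per cell cannot be told apart.

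TGF-β1 binds a complex of kinase receptors that phosphorylates SMAD2 and SMAD3. These join SMAD4, enter the nucleus and change the transcription of target genes, among them inhibitors such as SMAD7, SKI, SKIL and PMEPA1 that act back on the pathway. In macrophages TGF-β is known for holding down inflammatory genes and for raising others, such as the chemokine receptor gene Cx3cr1.

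The treated Smad3fl libraries held 19033135, 20599200 and 16868501 counted reads and the treated Smad2fl libraries 20900172, 22754978 and 19495444. The lines lay far apart. Of 14261 genes tested with the edgeR quasi-likelihood test, 3614 were called at an adjusted p under 0.05, which is 25.3% of all tested genes. Of these, 1717 (12%) were higher and 1897 (13.3%) lower in treated Smad3fl, and 920 were at least doubled and 636 at least halved. A gene list with about 25.3% of its members called does not stand out from all tested genes. The median log2 difference over all tested genes was 0.01. The count of calls fell to 2335 without treated Smad2fl library 1, to 2336 without its library 2 and to 2092 without treated Smad3fl library 2. For 7263 genes (50.9%) the 3 libraries of one line did not overlap with the 3 of the other. The first principal component of the 6 libraries took 62.1% of their variance, and on the first component of all 24 libraries (32.7%) treated Smad3fl libraries scored 66.5 to 83.1 and treated Smad2fl libraries -11.4 to -8.50.

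The libraries of both groups carried the marks of macrophages. Levels are in CPM, the usual unit of counts relative to the scaled library total, listed for libraries 1, 2 and 3. Adgre1, which encodes the macrophage antigen F4/80, was at 8281, 9333 and 10434 CPM in treated Smad3fl and at 8970.4, 8827 and 8389 CPM in treated Smad2fl. The summed level of 18 macrophage identity genes was high in both groups but not equal. It was 18623.7 to 22852.5 CPM in treated Smad3fl and 26393.5 to 27553.9 CPM in treated Smad2fl. Of these 18 genes 9 were lower in treated Smad3fl, Lyz2 among them, and 2 were higher. Several defining genes of other cells had 0 reads in both groups, among them Cd3e of T cells, Mcpt8 and Mcpt4 of basophils and mast cells and Cd209a of dendritic cells, and the neutrophil gene Ly6g had 0 and 1. Other members of the same lists were read and differed. The summed level of 13 neutrophil and granule markers was 262 to 300.2 CPM in treated Smad3fl and 375 to 423 CPM in treated Smad2fl, most of it from Csf3r, the G-CSF receptor gene (228, 259 and 291 against 368, 375 and 413 CPM). Of its 8 tested members 2 were higher and 1, Csf3r, lower, with a median of 2.06. S100a8, a granule protein, was higher at 3.63, 1.67 and 0.951 against 0.281, 0.220 and 0.313 CPM, and S100a9, its partner, at 7.66, 2.33 and 1.23 against 0.749, 0.132 and 1.25 CPM. Library 1 of treated Smad3fl was the highest for both, and S100a9 lost its call without it or without Smad2fl library 1 or 2, as Csf3r did without Smad3fl library 1.

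The summed level of 10 B and T cell markers was 33.9 to 74.5 CPM in treated Smad3fl and 95.1 to 113 CPM in treated Smad2fl. Most of it came from Ighm, the immunoglobulin heavy chain (26.7, 45.4 and 60.6 against 93.9, 104 and 87.7 CPM). Of 4 tested 2 were lower, Ighm among them, and 0 higher, with 1 lower without Smad2fl library 1 or 2 or Smad3fl library 3. Other members had higher means in treated Smad3fl and were not called, such as the B cell gene Ms4a1 (3.40 against 1.82 CPM) and Cd4 (6.02 against 5.05 CPM). The summed level of 11 mast cell and basophil markers was 4.31 to 8.90 and 14.6 to 19.8 CPM. The 1 tested, the histamine enzyme gene Hdc, was lower (log2 -1.35), a call lost without Smad2fl library 3 or Smad3fl library 1 or 2. That of 10 dendritic cell markers was 22.1 to 30.2 and 24.1 to 35.5 CPM, mostly from Xcr1, which was not called (adjusted p = 0.622), with 1 of 6 tested higher and 1 lower, both lost without several single libraries. That of 8 monocyte markers was 227 to 276 and 261 to 296 CPM, and 3 of the 8 were higher, led by Ly6c2 (12.0, 10.8 and 6.49 against 2.01, 1.28 and 2.56 CPM). The summed level of 10 fibroblast and stromal markers was 4.26 to 5.67 and 2.40 to 2.82 CPM, and Col1a1 had 27 and 0 reads. The part of these cells in the results was not tested.

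**Figure D1:**
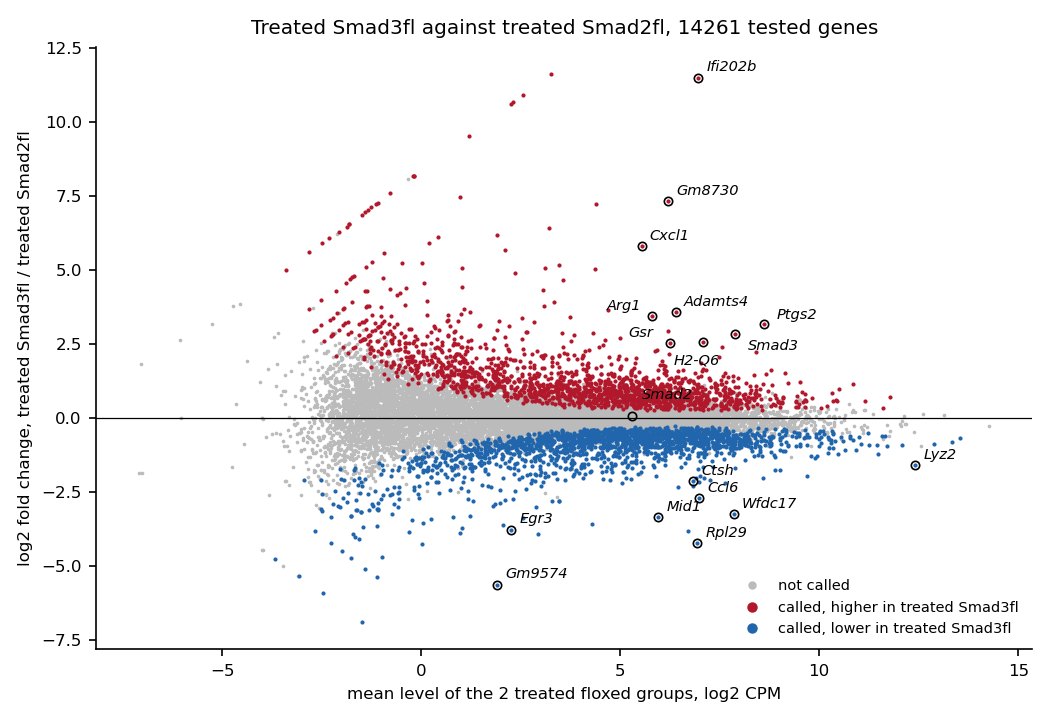
Log2 difference between treated Smad3fl and treated Smad2fl (vertical) against the mean level of both groups (horizontal, log2 CPM) for the 14261 tested genes. Red and blue points are the 1717 genes called higher and the 1897 called lower, grey points were not called, and circles mark genes described in the text. Called genes lie above and below zero over most of the range of levels, and Smad2 lies on the zero line.

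Smad3 itself was among the genes with the lowest adjusted p. Smad3 (ENSMUSG00000032402, mm10, chr9:63646767-63757994) was at 404, 442 and 399.6 CPM in treated Smad3fl and at 54.3, 66.6 and 50.6 CPM in treated Smad2fl. Each library of the Smad3 line lay several-fold above each of the Smad2 line, so a floxed Smad3 gene stood beside more Smad3 RNA, not less. The difference was 7.26-fold (log2 2.86 ± 0.14 SE, adjusted p = 1.3e-11, edgeR). It was as plain in untreated cells, where the log2 difference was 3.35, and in the Cre-carrying cells, where treated MyS3KO stood at 289, 250 and 265 CPM and the libraries labelled MyS2KO at 48.7, 46.7 and 52.8 CPM (2.44 ± 0.14, adjusted p = 2.03e-10). The count runs over the whole gene and does not resolve single exons.

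Smad2, the floxed gene of the other line, did not differ beyond the spread. Smad2 (ENSMUSG00000024563, chr18:76241580-76305731) was at 39.8, 39.2 and 42.0 CPM in treated Smad3fl and at 39.1, 35.9 and 38.3 CPM in treated Smad2fl (log2 0.10 ± 0.12, adjusted p = 0.582). In the libraries labelled MyS2KO it was at 38.7, 47.2 and 34.9 CPM, no lower than in Smad2fl. This count would not show the loss of single exons either, so it does not check that label. The common partner Smad4 differed by a log2 of -0.04 ± 0.10 (adjusted p = 0.792). On the per-length scale of the deposited FPKM values, Smad3 stood at 322 ± 22.99 in treated Smad3fl, above Smad2 at 30.0 ± 0.95 and Smad4 at 36.9 ± 1.90 (SD, n = 3). In treated Smad2fl the 3 genes were close together, with Smad3 at 40.1 ± 5.96, Smad4 at 34.3 ± 1.58 and Smad2 at 25.4 ± 1.39.

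The gene beside Smad3 moved the other way. Aagab (chr9:63602660-63644588), which encodes a helper of adaptor complex assembly, was at 39.9, 32.6 and 37.2 CPM in treated Smad3fl and at 92.6, 91.4 and 75.7 CPM in treated Smad2fl (-1.24 ± 0.17, adjusted p = 3.5e-05). Called genes were otherwise spread over the genome. Within 5 Mb of Smad3, 20 of 72 tested genes were called (27.8%), and within 5 Mb of Smad2, 11 of 34 (32.4%). Chromosome X had 31.3% of its tested genes called and the other nuclear chromosomes 22.5% to 29.6%, beside 25.3% over all genes. For calls with at least a doubling or halving the share over all genes was 10.9%. Chromosome 9, which carries Smad3, had the highest such share at 14.5%, and chromosome X had 13.6%. Within 5 Mb of Smad3 it was 11.1%, and within 5 Mb of Smad2 11.8%.

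**Figure D2:**
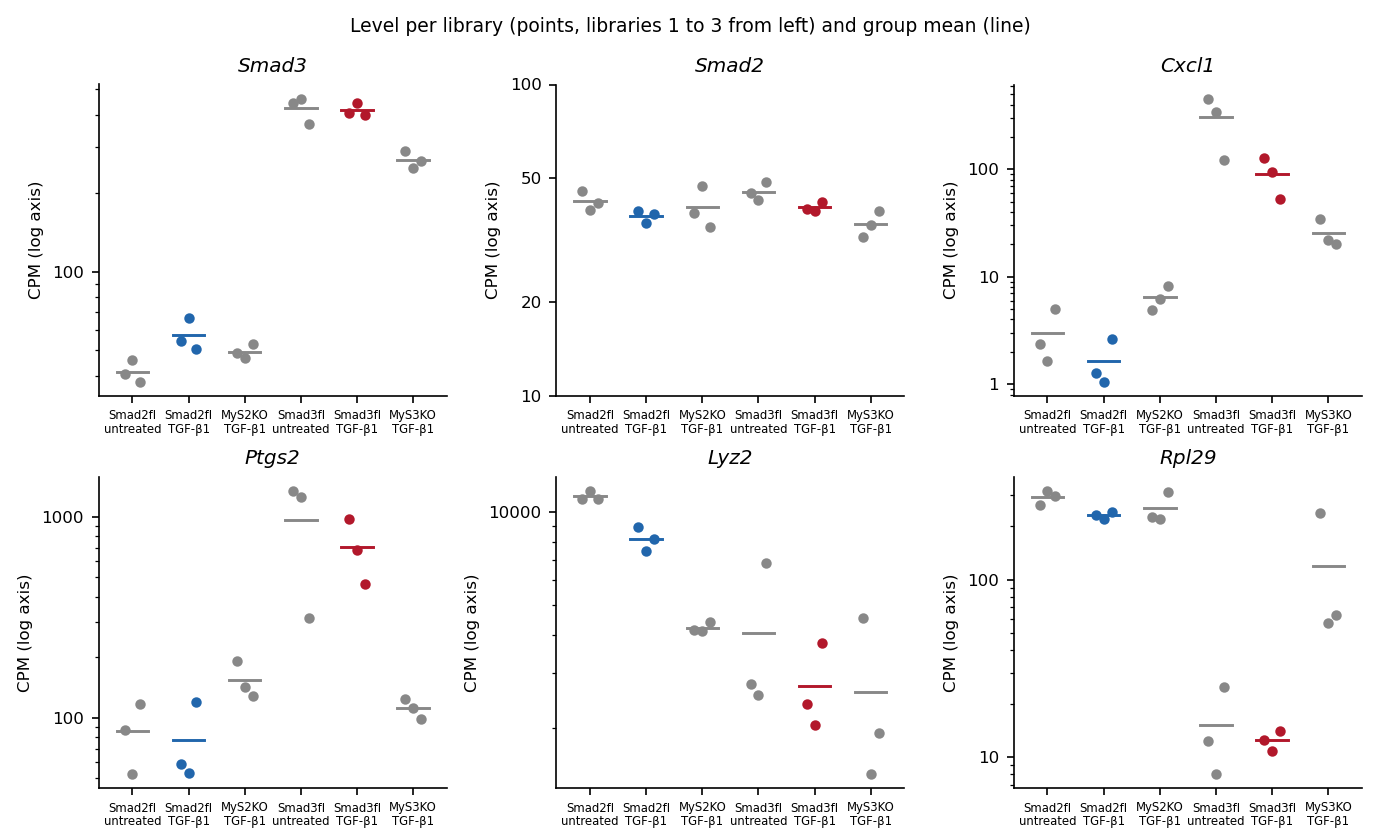
Level of 6 genes in each library (points, CPM on a log axis) with the group mean (line) in the floxed lines with and without TGF-β1 and in the treated Cre-carrying groups. Treated Smad3fl is red, treated Smad2fl blue. Smad3 separates all 3 groups of the Smad3 line from those of the Smad2 line, Smad2 does not, and Cxcl1, Ptgs2, Lyz2 and Rpl29 separate the floxed lines.

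TGF-β receptors and ligands differed gene by gene. Of 10 receptors tested 2 were higher and 2 lower. Eng, the co-receptor endoglin, was at 32.1, 37.5 and 36.8 CPM in treated Smad3fl against 72.0, 100.1 and 84.3 CPM, and was lower by a log2 of -1.27 ± 0.22 (adjusted p = 0.000286). Acvrl1, a type I receptor that acts with endoglin, was lower too (-0.69 ± 0.17, adjusted p = 0.00487). The higher receptors, Tgfbr1 (0.91) and Acvr2a (1.14), lost their call without treated Smad2fl library 2 and without treated Smad3fl library 1, and each also without 1 or 2 further libraries.

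Of 14 ligands and activators tested 2 were higher and 4 lower, where the 2 became 1 without Smad2fl library 2 and the 4 became 2 without Smad2fl library 2 or 3 or Smad3fl library 1 or 2. Thbs1, thrombospondin 1, which can free latent TGF-β, was at 898, 481 and 293 CPM in treated Smad3fl against 101, 128 and 125 CPM. All 3 libraries were higher, library 1 by the most (2.24 ± 0.44, adjusted p = 0.00106). Ltbp3, which binds latent TGF-β in the matrix, was at 3.26, 6.99 and 10.2 against 21.9, 24.0 and 26.9 CPM (-1.84 ± 0.40, adjusted p = 0.00216). Gdf15, a distant member of the family that stress induces, was at 72.1, 58.9 and 67.2 against 232, 172 and 214 CPM (-1.64 ± 0.29, adjusted p = 0.00033). The ligand gene Tgfb1 was at 96.3, 87.5 and 95.9 against 133, 135 and 111 CPM and was not called (adjusted p = 0.163).

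The feedback inhibitors did not pass the test in either direction. With edgeR 0 of 13 were called, 2 had an unadjusted p under 0.05 and DESeq2 called 1 higher. Their log2 differences ran from -0.66 to 0.56, with a median of 0.04. Smad7, the inhibitory SMAD, was at 51.0, 48.4 and 57.5 CPM in treated Smad3fl against 42.0, 44.1 and 41.0 CPM (0.30 ± 0.17, adjusted p = 0.201). Its libraries did not overlap, yet the difference stayed within what the test allows. Skil (0.56 ± 0.23, adjusted p = 0.0721) and Smad6 (-0.45 ± 0.22, adjusted p = 0.131) differed in sign.

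Of 25 genes on a list of TGF-β induced targets, 7 were higher and 2 lower, with a median log2 of 0.45. Like the other lists it was chosen with earlier results of these data known. The 7 fell to 3 without Smad2fl library 1 and to 4 without Smad2fl library 2 or Smad3fl library 2. Cdkn2b, the cell cycle inhibitor p15, was at 8.07, 6.69 and 5.48 CPM in treated Smad3fl against 1.92, 1.59 and 1.88 CPM (1.91 ± 0.26, adjusted p = 2.36e-05). Cx3cr1 was at 21.4, 15.0 and 13.8 against 5.90, 4.23 and 3.45 CPM (1.89 ± 0.39, adjusted p = 0.00151). In both genes each Smad3fl library lay well above each Smad2fl library. Tgfbi, a matrix protein whose name comes from its induction by TGF-β, went the other way at 424, 379 and 448 against 727, 816 and 647 CPM (-0.81 ± 0.22, adjusted p = 0.00935).

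The most extreme differences were of genes close to silent in one line. Of the records that led the higher side 4 had 0 reads in treated Smad2fl, and their folds are lower bounds computed against 3 reads over that group. They were the pseudogene Gm8810 with 1187 reads (at least 399-fold higher), the processed pseudogene AC123956.1 with 731 (at least 246-fold), the immunoglobulin segment Ighv14-1 with 633 (at least 213-fold) and the synaptic gene Rims2 with 556 (at least 187-fold). Rims2 was at 9.92, 0.484 and 18.2 CPM, so library 2 stood far below the others, and Ighv14-1 at 2.22, 18.9 and 8.62 CPM, with library 2 the highest. Their fitted log2 values, which are no bounds, fell from 10.61 to 9.73 without library 3 for Rims2 and from 10.67 to 9.76 without library 2 for Ighv14-1. Ifi202b (chr1:173962568-173982744), an interferon-inducible gene known for levels that differ between mouse strains, was at 204, 262 and 275 CPM in treated Smad3fl against 0.0468, 0.0881 and 0.104 CPM (11.50 ± 1.65, adjusted p = 4.87e-05). The processed pseudogene Gm8730 was at 135, 132 and 169 against 0.562, 1.19 and 0.940 CPM (7.32 ± 0.37, adjusted p = 1.3e-11), and Gm9625 at 38.5, 39.0 and 47.8 against 0.281, 0.0881 and 0.470 CPM. Reads of pseudogenes may be shared with near-identical copies, so these records are uncertain.

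On the lower side stood Rpl29, Mid1, Olfm1 and Egr3. Rpl29 (chr9:106429454-106431568), a protein of the large ribosomal subunit, was at 12.5, 10.9 and 13.99 CPM in treated Smad3fl against 231, 221 and 241 CPM (-4.22 ± 0.51, adjusted p = 6.61e-06). Mid1, a ubiquitin ligase on microtubules whose gene on chromosome X spans the pseudoautosomal boundary of laboratory mice, was at 9.56, 9.19 and 14.8 against 65.3, 145 and 129 CPM (-3.34 ± 0.37, adjusted p = 1.67e-06). The overlapping records Gm15726 (-3.55) and G530011O06Rik (-3.79) were lower with it, and without a stated strand setting their reads cannot be parted from those of Mid1. Olfm1, which encodes the secreted protein olfactomedin 1, was at 2.08, 1.28 and 1.57 against 11.3, 16.5 and 11.2 CPM (-2.98 ± 0.22, adjusted p = 9.41e-09). Wfdc17, a small secreted protein of activated macrophages, was at 15.6, 19.7 and 98.5 against 461, 345 and 443 CPM, a log2 of -3.23 ± 0.61 that became -4.57 without Smad3fl library 3. Pira2 (-3.92), a paired immunoglobulin-like receptor with close paralogs, and the pseudogene Gm9574 (-5.61) were also lower, by -4.53 and -6.29 without that library.

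A group of inflammatory genes was many-fold higher in treated Smad3fl. The group is led by the neutrophil-attracting chemokine Cxcl1 and its neighbours on chromosome 5, and the bases before their start sites are shown because the 3 chemokine genes moved together and share a stretch of sequence. Each line gives the 120 bases before the start, from RefSeq on GRCm38.p6, plus strand, with capitals marking matches, on either strand, to a form of the binding motif of NF-κB that reads GGGA, any 4 bases and CC. Forward and reverse matches can overlap in 1 run of capitals.
Cxcl1, chr5:90891125-90891244: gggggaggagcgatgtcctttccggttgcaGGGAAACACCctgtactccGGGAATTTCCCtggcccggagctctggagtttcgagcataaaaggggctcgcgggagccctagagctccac
Cxcl2, chr5:90903779-90903898: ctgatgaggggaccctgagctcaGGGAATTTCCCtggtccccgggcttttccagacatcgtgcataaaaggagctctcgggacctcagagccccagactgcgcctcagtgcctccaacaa
Cxcl3, chr5:90785981-90786100: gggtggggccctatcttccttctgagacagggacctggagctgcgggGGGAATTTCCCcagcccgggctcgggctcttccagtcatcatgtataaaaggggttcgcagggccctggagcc
Il6, chr5:30012994-30013113: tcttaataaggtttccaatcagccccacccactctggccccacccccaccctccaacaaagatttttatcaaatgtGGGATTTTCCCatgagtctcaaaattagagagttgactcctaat
The same run of 11 bases, GGGAATTTCCC, stands in the printed bases of Cxcl1, Cxcl2 and Cxcl3. It occurs in 14 (0.0426%) of 32851 RefSeq promoter windows, which are longer than the 120 bases printed here. The counts of matches that follow were also made over these whole windows. The motif itself is common, with a match in 20.73% of these windows. Of the 7 cytokine and chemokine genes called higher, 5 held a match and Il1b and Ptgs2 did not. Of the 4 called lower 0 did, and of 11 members with a window that were not called 4 did. A match describes letters and is no measure of binding.

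Cxcl1 (ENSMUSG00000029380, chr5:90891241-90893115) was at 126, 94.4 and 52.5 CPM in treated Smad3fl against 1.26, 1.06 and 2.61 CPM. The lowest library of the Smad3 line lay far above the highest of the other. The difference of means was 55.4-fold (5.81 ± 0.55, adjusted p = 2.21e-07). Cxcl2, a close relative with the same receptor, was at 162, 110 and 94.1 against 18.5, 22.3 and 41.2 CPM (2.16 ± 0.36, adjusted p = 0.000242). Cxcl3 was at 22.4, 5.94 and 3.30 against 0.468, 0.396 and 2.19 CPM, and its log2 of 3.40 became 4.60 without Smad2fl library 3 and 2.17, with no call, without Smad3fl library 1. Per length, Cxcl2 stood at 100.4 ± 33.9 FPKM and Cxcl1 at 72.3 ± 32.2 FPKM in treated Smad3fl, and at 20.1 ± 8.57 and 1.16 ± 0.575 FPKM in treated Smad2fl.

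Of 11 inflammatory cytokine and mediator genes tested 3 were higher and 0 lower (median 0.65). The called share was 27.3%, beside 25.3% of all tested genes. Ptgs2, the inducible cyclooxygenase that makes prostaglandins, was at 977, 684 and 462 CPM in treated Smad3fl against 58.6, 53.2 and 119 CPM (3.20 ± 0.49, adjusted p = 0.000102). Il6 was at 6.34, 3.92 and 2.80 against 0.234, 0.0881 and 0.783 CPM (3.60 ± 0.85, adjusted p = 0.00433), with a log2 of 4.72 without Smad2fl library 3. Il1b was at 54.5, 19.9 and 18.9 against 3.28, 8.06 and 7.57 CPM (2.30 ± 0.52, adjusted p = 0.00284), with a log2 of 1.58 without Smad3fl library 1. The groups did not overlap for Ptgs2, Il6 or Il1b. The other 8 tested members were not called.

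Chemokines went both ways, with 4 of 21 tested higher, 4 lower and a median of -0.73. The higher ones were Cxcl1, Cxcl2, Cxcl3 and Ccl22, which attracts T cells (2.11). Ccl6 and Ccl9, a pair of macrophage chemokines, were the largest on the lower side. Ccl6 was at 21.8, 20.9 and 58.6 CPM against 223, 211 and 216 CPM (-2.69 ± 0.40, adjusted p = 7.65e-05), and -3.35 without Smad3fl library 3. Ccl9 was at 243, 264 and 505 against 1169, 1358 and 1397 CPM (-1.96 ± 0.28, adjusted p = 5.14e-05). Ccl8, a ligand for monocyte and T cell receptors, differed by -1.64.

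Genes of the matrix went both ways. Of 17 matrix proteases and inhibitors tested 5 were higher and 3 lower, with 3 higher without Smad3fl library 1 and 1 lower without Smad2fl library 2, and of 12 matrix proteins 3 were higher and 1 lower. Adamts4, a protease of the cartilage matrix, was at 191, 159 and 115 CPM against 13.9, 11.3 and 13.6 CPM (3.58 ± 0.30, adjusted p = 5.15e-08). Mmp2, a gelatinase, was lower at 3.08, 1.28 and 1.45 against 6.41, 5.46 and 6.11 CPM (-1.62 ± 0.35, adjusted p = 0.00205). Arg1, arginase 1, which stands on the list of alternative activation (3 higher and 2 lower of 11, the 2 becoming 0 without Smad3fl library 2), was at 209.8, 66.1 and 32.3 against 8.61, 12.1 and 7.57 CPM (3.44 ± 0.66, adjusted p = 0.000813), and 2.34 without Smad3fl library 1. Vcam1, an adhesion molecule for leukocytes, was at 83.0, 51.1 and 32.1 against 7.30, 6.87 and 11.4 CPM (2.70 ± 0.55, adjusted p = 0.00124). Library 1 was the highest and library 3 the lowest of the treated Smad3fl libraries for Adamts4, Arg1, Vcam1, Cxcl1, Cxcl2, Cxcl3, Ptgs2, Il6, Il1b and Thbs1. Fn1, fibronectin, was at 2.85, 3.96 and 4.25 against 0.655, 0.969 and 0.626 CPM (2.28 ± 0.39, adjusted p = 0.000267).

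Lysosomal genes were mostly lower in treated Smad3fl, and macrophage identity genes went both ways. Of 18 macrophage identity genes 9 were lower and 2 higher (median -0.41). The 2 became 1 without any 1 library other than Smad2fl library 3, and the 9 fell to 6 without Smad2fl library 1 or 2, to 5 without Smad3fl library 1 and to 4 without its library 2. Lyz2 (chr10:117277331-117282321), lysozyme, was at 2395, 2040 and 3753 CPM against 8934, 7462 and 8196 CPM (-1.59 ± 0.38, adjusted p = 0.00444). Its relative Lyz1 was lower as well (-1.76 ± 0.31, adjusted p = 0.000411), and reads of this pair may be shared. Fcgr1, the high-affinity receptor for IgG, was at 801, 801 and 1020 against 1652, 1789 and 1798 CPM (-0.999 ± 0.21, adjusted p = 0.00171). Csf1r, the CSF-1 receptor, and Adgre1 were not called (adjusted p = 0.219 and 0.673).

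Of 24 lysosomal genes 17 were lower and 3 higher, with a median of -0.52, and the 17 fell to 11 without Smad3fl library 2. Ctsh, cathepsin H, was at 44.0, 38.8 and 44.9 CPM in treated Smad3fl against 199, 164 and 190.0 CPM (-2.11 ± 0.22, adjusted p = 9.27e-07). Lamp1, a main protein of the lysosomal membrane, was at 679.5, 676 and 838 against 1724, 1571 and 1662 CPM (-1.18 ± 0.19, adjusted p = 0.000158). Ctsl, cathepsin L, was higher, at 3353, 2620 and 1756 against 1002, 1237 and 1185 CPM (1.18 ± 0.22, adjusted p = 0.000587). Cathepsins thus differed in opposite directions. Of 12 receptors and bridging proteins for dying cells 6 were lower and 2 higher, with 3 lower without Smad2fl library 1, 4 lower without Smad3fl library 1, and 1 higher without Smad2fl library 3 or Smad3fl library 1 or 2. They include Pros1, protein S, which links dying cells to phagocyte receptors (-1.25 ± 0.23, adjusted p = 0.00066). Marco, a scavenger receptor for bacteria and particles, was higher at 540, 875 and 598 against 197, 198 and 255 CPM (1.63 ± 0.28, adjusted p = 0.000279).

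Genes of the cytosolic ribosome were lower almost as a whole. Of 80 ribosomal protein genes tested, out of 82, 70 were lower and 0 higher, with a median of -0.87, and leaving out 1 library left 56 to 70 lower. Rpl32 was at 46.2, 38.6 and 73.3 CPM against 218, 180 and 212 CPM (-1.95, adjusted p = 0.000152), and Rpl36a at 32.8, 31.1 and 40.8 against 113, 85.7 and 114 CPM (-1.58, adjusted p = 4.65e-05). Together the 82 genes took 1.01 ± 0.0904% of the counted reads in treated Smad3fl and 1.71 ± 0.110% in treated Smad2fl (SD, n = 3). The groups did not overlap, and the difference of -0.702 percentage points had an exact 2-sided permutation p = 0.1, the smallest that 3 against 3 libraries can give. The share was 1.82 ± 0.149% in treated MyS3KO and 1.75 ± 0.209% in the libraries labelled MyS2KO. Many ribosomal protein genes have near-identical pseudogenes, so single members are uncertain.

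Of 22 nuclear genes of the respiratory chain 11 were lower and 0 higher (median -0.50), with 6 lower without Smad2fl library 1 and 5 without Smad3fl library 2. Cox4i1, a subunit of cytochrome c oxidase, was at 121, 122 and 152 against 265, 246 and 248 CPM (-0.95 ± 0.22, adjusted p = 0.00319). The 13 genes of the mitochondrial genome had a median of -0.02 with 1 called higher (0 without Smad2fl library 1 or Smad3fl library 1), and their reads made 0.807 ± 0.0402% and 0.795 ± 0.0436% of all. Other features of the libraries moved with the ribosomal genes. Long noncoding classes took 1.06 ± 0.0404% of reads in treated Smad3fl and 0.800 ± 0.0398% in treated Smad2fl. Of 451 lincRNA genes 72 were higher and 12 lower (median 0.50). Their called share was below the 25.3% of all tested genes, of which 12% were higher and 13.3% lower. Median differences in 4 equal classes of gene length, from the shortest genes to the longest, were -0.04, -0.06, 0.00 and 0.11. The part of library composition in these results was not tested.

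**Figure D3:**
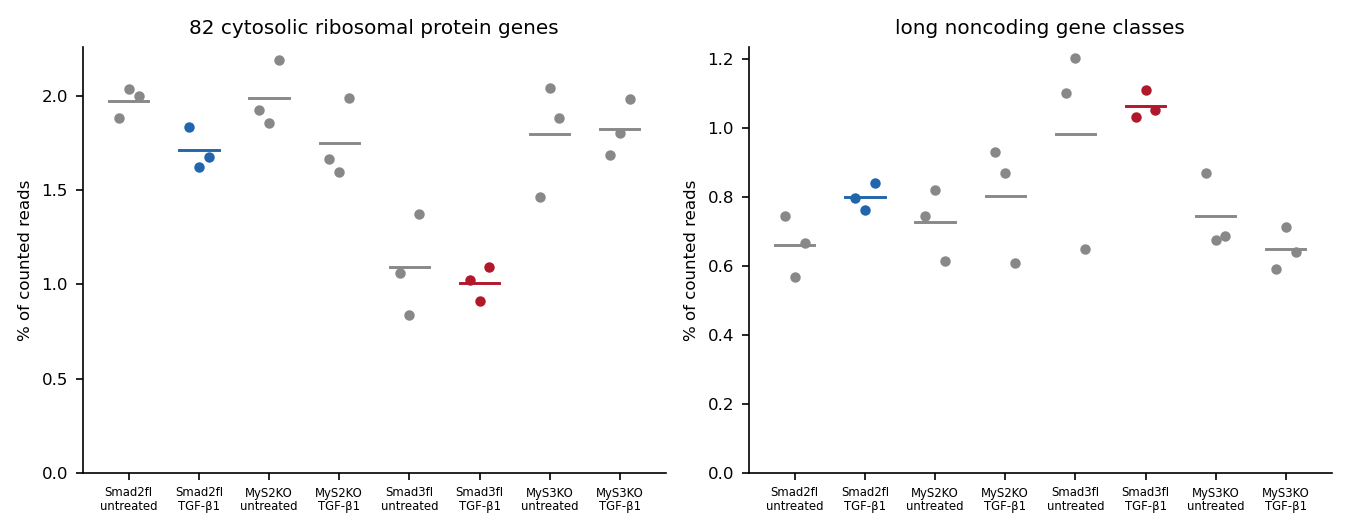
Share of counted reads in 82 cytosolic ribosomal protein genes (left) and in long noncoding gene classes (right) in each of the 24 libraries (points) with the group mean (line). Treated Smad3fl (red) has the lowest group mean on the left, 1.01% against 1.71% in treated Smad2fl (blue), and untreated Smad3fl is close to it.

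Genes of glycolysis and of the response to low oxygen were higher. Of 22 gene records tested 14 were higher and 0 lower, with a median of 0.53, and leaving out 1 library left 10 to 13. Egln3, a prolyl hydroxylase induced by HIF-1, was at 93.4, 65.1 and 45.8 CPM in treated Smad3fl against 17.6, 20.3 and 12.2 CPM (2.03 ± 0.35, adjusted p = 0.000277). Bnip3, a mitophagy receptor and HIF-1 target, differed by 1.15 (adjusted p = 0.000163), Hif1a itself by 0.97 (adjusted p = 0.0036), and Slc2a1, the main glucose transporter, by 0.80 (adjusted p = 0.00107).

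Of 17 genes of glutathione metabolism and of the NRF2 response to oxidants 7 were higher and 4 lower (median 0.13). The 4 fell to 2 without Smad2fl library 1 or 2 or without any 1 of the Smad3fl libraries. Gsr, glutathione reductase, was at 163, 121 and 103 CPM in treated Smad3fl against 20.4, 21.3 and 24.3 CPM (2.55 ± 0.22, adjusted p = 5.15e-08). Slc7a11, the cystine transporter, was at 125, 96.1 and 72.6 against 16.8, 13.9 and 30.1 CPM (2.28 ± 0.36, adjusted p = 0.000127). Gclm and Gclc, the subunits of the enzyme that starts glutathione synthesis, were higher by 1.65 and 1.43. Gpx1, a glutathione peroxidase, was lower by -0.77 (adjusted p = 0.00256).

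Of 20 immediate early genes, which serum and other signals switch on within minutes, 4 were higher and 6 lower. The 4 fell to 2 without any 1 library other than Smad3fl library 3. The early growth response gene Egr1 was at 6.53, 6.29 and 9.23 CPM against 24.7, 32.2 and 24.4 CPM (-1.89 ± 0.22, adjusted p = 5.12e-06). Egr3 was at 0.272, 0.440 and 1.34 against 8.52, 11.3 and 6.99 CPM (-3.75 ± 0.52, adjusted p = 3.04e-05), and -4.64 without Smad3fl library 3. Myc, the growth regulator, was higher at 26.2, 14.5 and 10.3 against 4.87, 5.29 and 5.27 CPM (1.73 ± 0.29, adjusted p = 0.00021). Of 22 DNA replication genes 0 were higher and 1 lower. Of 17 mitosis genes 1 was higher and 3 lower, a called share of 23.5%. The 3 became 0 without Smad2fl library 1 or 2 or Smad3fl library 2 and 1 without Smad3fl library 3. The higher one was the checkpoint kinase gene Bub1, at 3.99, 4.27 and 2.85 against 0.468, 0.220 and 0.261 CPM (3.53 ± 0.61, adjusted p = 0.000311). Of 19 sterol synthesis genes 4 were lower and 0 higher, a called share of 21.1%. The lower count was 0 without Smad3fl library 1, 2 without Smad2fl library 1 or 2 or Smad3fl library 2, and 12 without Smad3fl library 3.

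**Figure D4:**
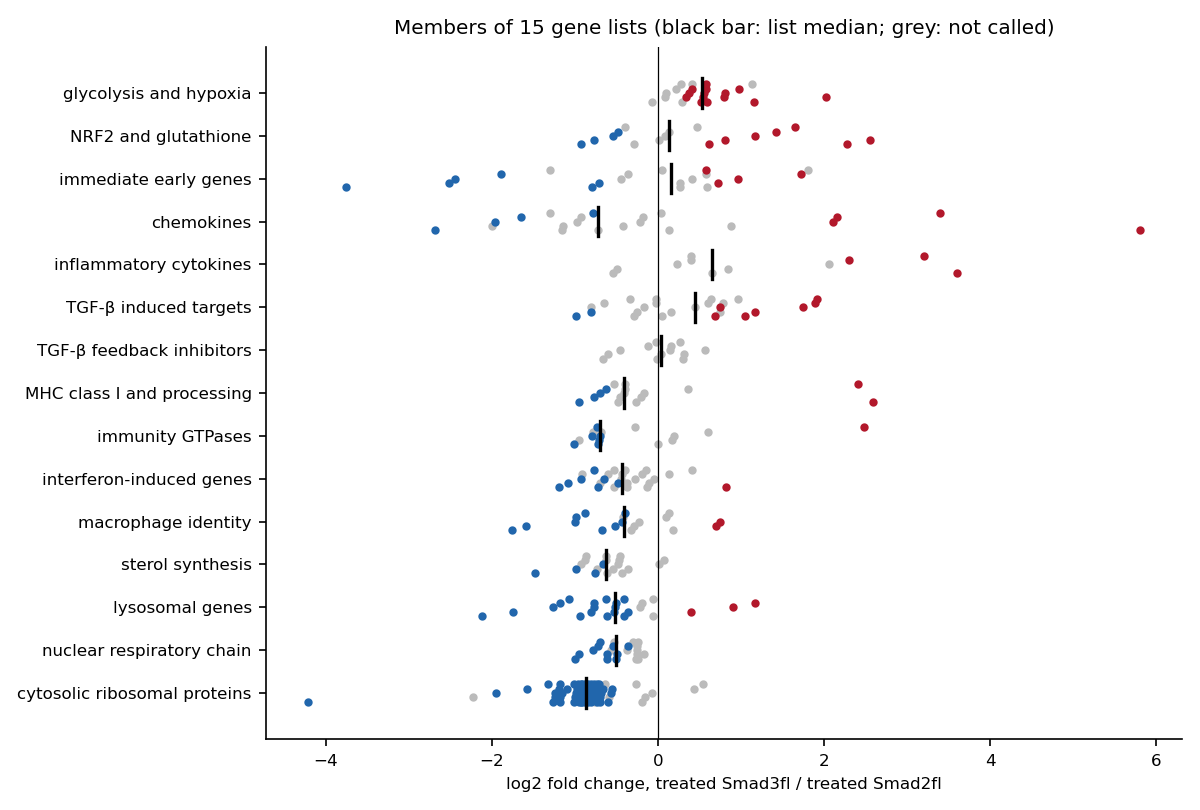
Log2 difference between treated Smad3fl and treated Smad2fl of each tested member of 15 gene lists (points: red called higher, blue called lower, grey not called), with the list median as a black bar. Ribosomal protein, respiratory chain and lysosomal genes lie mainly left of zero, glycolysis genes mainly right, and chemokines on both sides.

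Interferon-induced genes and the genes of antigen presentation held calls in both directions. Of 26 interferon-induced genes 7 were lower and 1 higher, 23 had a log2 below 0 and the median was -0.44. The called share was 30.8%, beside 25.3% of all tested genes. The 7 fell to 2 without Smad2fl library 2 or Smad3fl library 1 and to 3 without Smad2fl library 3 or Smad3fl library 2. Of 15 immunity GTPases, which act on the vacuoles of intracellular microbes, 6 were lower and 1 higher (median -0.69), and the 6 fell to 2 without Smad2fl library 2 or 3 or Smad3fl library 1 or 2. Ifi47, one of them, was at 126, 155 and 184 CPM against 239, 280 and 253 CPM (-0.73 ± 0.17, adjusted p = 0.00368). Of 16 MHC class I and processing genes 2 were higher and 4 lower, with 2 lower without Smad2fl library 2 and 1 without Smad3fl library 1 or 2. The higher ones were the Qa-2 genes H2-Q6 and H2-Q7. H2-Q6 was at 275, 221 and 200.4 CPM in treated Smad3fl against 30.2, 39.5 and 45.9 CPM (2.59 ± 0.22, adjusted p = 5.31e-08), and H2-Q7 at 365, 309 and 275 against 53.7, 62.5 and 62.0 CPM (2.41 ± 0.21, adjusted p = 5.15e-08). These are close paralogs, so their split is uncertain. H2-DMa, which loads peptides onto MHC class II, was lower (-1.62 ± 0.22, adjusted p = 3.24e-05).

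Of 16 Toll-like receptor genes and partners 1 was higher and 3 lower, with 1 lower without Smad3fl library 1. The called share was 25%, beside 25.3% of all tested genes. Tlr9, the sensor of bacterial DNA, was at 46.1, 50.8 and 78.9 CPM against 237, 268 and 233 CPM (-2.07 ± 0.31, adjusted p = 7.77e-05). Tlr4, the endotoxin receptor, was higher at 104, 118 and 119 against 54.9, 60.6 and 72.9 CPM (0.85 ± 0.21, adjusted p = 0.00654). Of 14 inflammasome sensors and caspases 5 were lower and 2 higher, and the 5 fell to 3 without Smad2fl library 3 or Smad3fl library 2. Pycard, the inflammasome adaptor, differed by -0.95 (adjusted p = 0.000816) and Gsdmd, the pore protein of pyroptosis, by -0.95 (adjusted p = 0.000382).

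Single libraries of treated Smad3fl stood apart from the rest of their group for a few genes by 10-fold or more. Library 3 was low for the antiviral gene Trim12a (38.7, 47.7 and 0.839 CPM) and its neighbour Trim5 (10.6, 15.4 and 0.224 CPM), and high for the inflammasome sensor Nlrp1a (0, 0.0440 and 9.01 CPM). Treated Smad2fl libraries held 60.6 to 77.5 CPM of Trim12a and 17.6 to 18.6 CPM of Nlrp1a. Library 2 was low for the centrosome gene Cep85 (87.5, 7.48 and 101 CPM) as for Rims2. The untreated Smad3fl libraries of the same numbers showed the same pattern, with Trim12a at 46.6, 73.1 and 0.423 CPM and Cep85 at 172, 11.4 and 146 CPM. Every treated MyS3KO library lay below treated Smad3fl library 3 for Trim12a (0.0613, 0.0992 and 0.0852 CPM) and Trim5 (0, 0 and 0.0852 CPM). Each of them had 0 CPM of Nlrp1a, close to treated Smad3fl libraries 1 and 2. The treated MyS3KO libraries held 3.57 to 5.58 CPM of Cep85, below treated Smad3fl library 2, and 6.74 to 11.7 CPM of Rims2, above it. Why these genes split within the Smad3 line was not tested. These genes were chosen after their values were seen.

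The line difference was also measured without TGF-β1. The untreated libraries are not known to be independent of the treated ones. In Smad3fl the deviations of treated and untreated libraries of the same number from their group means correlated over genes with r = 0.45, 0.34 and 0.33, and in Smad2fl with r = 0.05, 0.13 and 0.16. Untreated Smad3fl against untreated Smad2fl called 4762 genes (33.4% of those tested), 2531 higher and 2231 lower, with 3131 calls without untreated Smad2fl library 2 and 2744 without untreated Smad3fl library 2. Of the 1717 genes higher under TGF-β1, 1398 were also higher without it (81.4% of the first list and 55.2% of the second), and of the 1897 lower genes 1475 were also lower (77.8% and 66.1%). No gene was called in opposite directions. The medians of the higher genes were 1.05 with and 1.06 without TGF-β1, and those of the lower genes -0.82 and -0.76. In the test of the difference between the treated and untreated line differences edgeR called 0 genes, with 464 (3.25%) at an unadjusted p under 0.05 and a smallest adjusted p of 0.121. DESeq2 called 11 and edgeR without a low-count filter 22. An edgeR fit with the library number within each line as a replicate block, chosen after seeing the data, called 13 (2 higher and 11 lower) with a smallest adjusted p of 0.00903. Untreated Smad3fl library 3 lay apart from its group, at 6.93 on the first component of all libraries against 63.8 and 68.7. Ptgs2 was at 1342, 1246 and 312 CPM in untreated Smad3fl and 86.9, 52.6 and 117 CPM in untreated Smad2fl.

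The lines with Cre differed less. Treated MyS3KO against the libraries labelled MyS2KO called 958 genes (6.72%), 521 higher (3.65%) and 437 lower (3.06%). That count was 439 without MyS3KO library 3, 540 without its library 2, 1525 without its library 1, and 625 and 541 without MyS2KO library 1 and 2. Of the 1717 genes higher in treated Smad3fl 251 were also higher here (14.6%, and 48.2% of the 521) and 17 lower. Of the 1897 lower genes 196 were also lower (10.3%, and 44.9% of the 437) and 10 higher. The median of the 1717 was 0.17 here and that of the 1897 was -0.13. The difference between the floxed and the Cre-carrying contrast was called for 1011 genes (7.09%), 348 to 1377 with 1 library left out. Line, Cre and the deletion of the floxed gene vary together in this test and cannot be told apart.

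Among the inflammatory genes the line difference was tested to be larger in the floxed cells for Ptgs2 (3.20 against -0.46, difference 3.66 ± 0.66, adjusted p = 0.00349), Cxcl2 (2.16 against -0.85, difference 3.01 ± 0.51, adjusted p = 0.00204) and Adamts4 (3.58 against 0.15, difference 3.43 ± 0.40, adjusted p = 6.02e-05). Cxcl1 was higher in both, by 5.81 and 1.98, and the difference of 3.83 ± 0.69 passed (adjusted p = 0.00331). Ptgs2 stood at 124, 112 and 98.7 CPM in treated MyS3KO and at 190.2, 142 and 128 CPM in the libraries labelled MyS2KO. All of these lay below each treated Smad3fl library, and those labelled MyS2KO lay above each treated Smad2fl library. Gsr (2.55 against 0.37) followed the same pattern. The 80 ribosomal protein genes had a median of -0.03 between the Cre-carrying groups, and for 32 of them the difference between the contrasts was called. Other lists kept their medians. Of the 22 glycolysis and hypoxia records 12 were higher and 0 lower between the Cre-carrying groups (median 0.60, against 0.53 between the floxed). The medians there were -0.39 for interferon-induced genes (1 higher, 0 lower) and -0.76 for immunity GTPases (0 higher, 2 lower).

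Some of the largest line differences were alike with and without Cre. Gm11868, a processed pseudogene, differed by 6.44 in the floxed and 6.48 in the Cre-carrying cells, Gm9574 by -5.61 and -5.44, and Eps8l1, which encodes an actin regulator, by -3.37 and -3.55. Gm8730, high in treated Smad3fl, was at 0.674, 0.942 and 1.75 CPM in treated MyS3KO (log2 differences 7.32 against -0.26, difference 7.58 ± 0.54, adjusted p = 2.08e-08). Arsb, a lysosomal sulfatase, turned its sign. It was at 0.770, 1.01 and 1.79 CPM in treated Smad3fl against 2.15, 3.17 and 4.96 CPM (-1.54), and at 68.2, 49.7 and 53.9 CPM in treated MyS3KO against 4.44, 3.57 and 3.82 CPM (3.86), with a difference of -5.40 ± 0.43 (adjusted p = 1.07e-07).

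**Figure D5:**
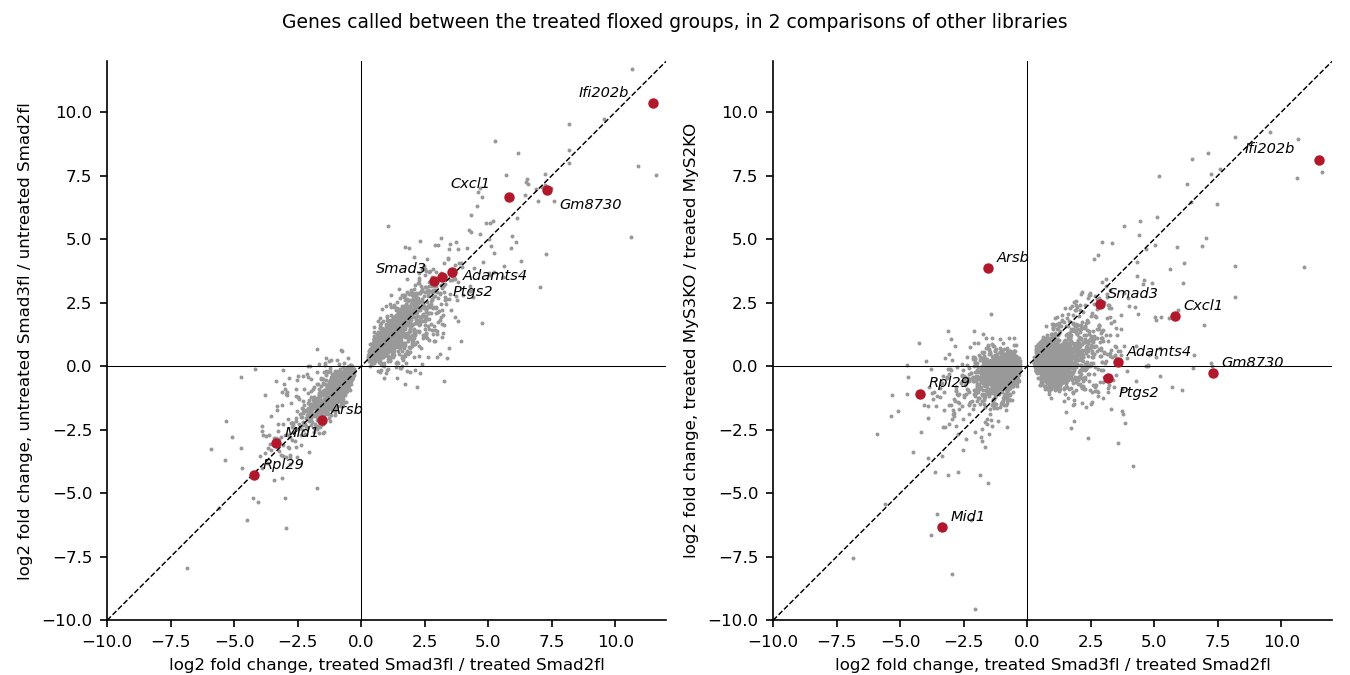
Log2 differences of the genes called between the treated floxed groups (horizontal) against the same genes between untreated Smad3fl and Smad2fl (left, vertical) and between treated MyS3KO and the libraries labelled MyS2KO (right, vertical), with equality dashed. On the left, points lie near the dashed line, while on the right most lie near zero, apart from genes such as Smad3 (2.86 and 2.44) and Mid1 (-3.34 and -6.33), and Arsb has opposite signs.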

How the data were processed

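Polyadenylated RNA of 24 macrophage libraries was sequenced as pairs of 150 bases, per the labels' protocols. The builds mm10 and GRCm38.p6 and the tools Cufflinks 2.1.1, TopHat2 2.0.9 and HTSeq 0.6.1 are named per the submitters' processing notes. Which tool did what, how reads were assigned and whether strand was used is not given in the sources used here. The authors deposited raw read counts of 54532 Ensembl genes and FPKM values of the same reads, which are normalized by gene length and library total and were used here only to compare levels between genes. FPKM is therefore no second measurement.

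Counts were scaled by TMM factors (0.892 to 1.16), 26189 genes had no read in any library, genes were kept by filterByExpr on the 8 groups, and 14261 were tested with the quasi-likelihood test of edgeR 4.0.16 (R 4.3.3) in 1 fit of all 24 libraries with a mean per group. The scripts were tested on simulated data. Adjustment of p-values was by Benjamini-Hochberg over all tested genes, with calls at an adjusted p under 0.05. Log2 values are fitted differences ± SE, where the SE is the absolute difference over the square root of the test's F statistic. Levels are CPM of the scaled total. Depth was 16868501 to 24918582 counts per library, and a bound for a group without reads was set at 3 reads.

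The rule for naming genes took Smad2, Smad3, Smad4 and Lyz2, the 12 largest called differences in each direction (at least 5 CPM in the higher group, no overlap), the 5 with the lowest p in each direction, up to 4 called members per list, TGF-β inhibitors and targets, the 4 called genes nearest to Smad3 and Smad2 on each side, and the 5 with the lowest p in each test of a difference between contrasts. Adgre1, Ccl22, Ccl8, Ccl9, Cep85, Col1a1, Csf1r, Ctsl, Gdf15, Gpx1, Myc, Nlrp1a, Tgfb1, Trim12a, Trim5 and Xcr1 fall outside this rule and were chosen after their values were seen. The comparison and the gene lists (41 of pathways, 10 of markers, with 805 of 806 symbols in the file) were chosen with earlier results of these data known. Alternatives were DESeq2 1.42.0, RLE size factors, no low-count filter, only the libraries of a contrast, a replicate block (over all lines and, chosen after seeing the data, within each line) and leaving out each library. Reads and exons were not analysed here, and some genes that the rule takes are not reported here.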

Additional observations from a re-analysis of the deposited data

Results flagged for a closer look

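Of the 104 tested genes named in the text, 47 differed more or less between the floxed lines than between the Cre-carrying lines under TGF-β1, by the edgeR test of that difference at an adjusted p under 0.05 over all genes. Most of these genes were named for a large or low-p difference between the floxed lines, so their number and the size of the floxed differences follow in part from that choice. Values are log2 differences of the treated floxed groups minus those of the treated Cre-carrying groups. The line difference was larger in size between the floxed lines for 39 of the 47 and between the Cre-carrying lines for 8. A positive value is therefore not always a gene higher in treated Smad3fl.

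Among inflammatory and remodelling genes the values were 6.62 for Il6, 4.23 for Cxcl3, 3.92 for Il1b, 3.83 for Cxcl1, 3.66 for Ptgs2, 3.01 for Cxcl2, 3.43 for Adamts4, 3.43 for Vcam1, 3.02 for Arg1 and 2.27 for Thbs1. In the oxidant response and oxygen sensing they were 2.32 for Slc7a11, 2.19 for Gsr, 1.31 for Gclc and 1.26 for Hif1a. In recognition and antiviral genes they were 1.64 for H2-Q6, 1.44 for H2-Q7, 1.57 for Tlr4, -1.69 for H2-DMa, 8.54 for Trim12a and 7.49 for Trim5. Trim12a differed by -1.20 between the floxed lines, with no call, and by -9.74 between the Cre-carrying lines. Trim5 differed by -1.19, with no call, and by -8.68.

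In the TGF-β pathway the values were 2.03 for Acvr2a, 1.82 for Cdkn2b, -1.49 for Smad6, -1.35 for Tgfbi, -2.07 for Ltbp3 and -1.01 for Eng. Macrophage, lysosome and ribosome genes had -2.07 for Lyz1, -1.23 for Lamp1, -1.45 for Pros1, -3.13 for Rpl29, -1.72 for Rpl32 and -1.62 for Rpl36a. Of the largest line differences, Gm8730 had 7.58, Gm9625 7.11, Arsb -5.40, G530011O06Rik 2.87, Mid1 2.99, Gm15726 2.25, Egr3 -2.71 and Olfm1 -1.44, and the neighbour of Smad3, Aagab, had -1.03. Mid1 (-3.34 and -6.33), Gm15726 (-3.55 and -5.80) and G530011O06Rik (-3.79 and -6.66) were lower in both the floxed and the Cre-carrying contrast. Cep85, low in 1 treated Smad3fl library, had 4.02, from 1.86 between the floxed and -2.16 between the Cre-carrying lines. Of the iron, chaperone and adhesion genes Slc40a1 had 1.89, Hfe -1.27, Hspa8 -0.85, Cd44 0.89 and Selplg -1.33.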

How the results depend on the processing

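Smad3 kept its direction and call under every alternative run (log2 2.78 to 2.98 with 1 library left out), and Smad2 was called under none (0.05 to 0.11 with 1 library left out). The count of calls between the treated floxed groups ran from 2092 to 3087 with 1 library left out and was 3615 with RLE size factors, 4094 with DESeq2 and 5363 in a fit of the 6 libraries alone. With 1 library left out it ran from 2744 to 5970 for the untreated lines, 0 to 2 for the treated minus untreated difference, 439 to 1525 for the Cre-carrying lines and 348 to 1377 for the floxed minus Cre-carrying difference. Without the low-count filter the last 3 counts were 22, 1475 and 1908, and with DESeq2 the 2 differences called 11 and 1687. Fits of only the libraries of a contrast called 2209 for the untreated lines and 2332 for the floxed minus Cre-carrying difference. The cause of these shifts was not tested. The ribosomal protein share differed by -0.796 points on the scaled total and by -0.747 to -0.641 with 1 library left out. Of 229 named genes besides Smad2 and Smad3, 198 were called and 66 lost the call with at least 1 library left out; 0 changed direction.

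Libraries of both lines share the numbers 1 to 3, but same-numbered libraries did not deviate together (correlations over genes 0.07, -0.01 and 0.04), so the numbers were not taken as pairs. With the library number as a replicate block 3751 genes were called, and none of the other counts of calls moved by over 1.5 times (4825 for the untreated lines, 0 for the treated minus untreated difference, 931 for the Cre-carrying lines and 1196 for the floxed minus Cre-carrying difference). Blocking on the number within each line, chosen after seeing the data, called 13 genes in the treated minus untreated difference in place of 0. The paired difference of the ribosomal protein share had an exact p of 0.25, the smallest that 3 pairs allow.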

Other observations

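Genes of iron handling differed in both directions between the treated floxed groups. Of 14 tested 4 were higher and 2 lower in treated Smad3fl, and the 4 became 3 without Smad2fl library 2 and 2 without Smad3fl library 1, while the 2 became 1 without any 1 library other than Smad3fl library 1. Slc40a1, ferroportin, which exports iron from the cell, was at 17.8, 19.6 and 11.2 CPM in treated Smad3fl against 7.72, 4.05 and 6.99 CPM (1.38 ± 0.30, adjusted p = 0.00201, edgeR). Tfrc, the transferrin receptor that takes iron up, was at 223, 234 and 223 against 111, 132 and 102 CPM (0.98 ± 0.25, adjusted p = 0.00701). Exporter and importer were thus both higher, in each library. Hfe, which binds the transferrin receptor, was lower, at 29.1, 28.1 and 35.5 against 60.7, 51.4 and 51.9 CPM (-0.82 ± 0.20, adjusted p = 0.00424).

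Heat shock and adhesion genes also split. Of 13 heat shock genes 4 were higher and 2 lower, with 2 higher without Smad2fl library 2. Hsp90aa1, the inducible form of the chaperone HSP90, was at 492, 538 and 423 CPM in treated Smad3fl against 158, 165 and 200.0 CPM (1.47 ± 0.38, adjusted p = 0.007). The constitutive chaperone gene Hspa8 was at 1572, 1659 and 1836 against 3587, 3027 and 2810 CPM (-0.90 ± 0.17, adjusted p = 0.000723). Of 17 integrin and adhesion genes 4 were higher and 3 lower, with 2 lower without Smad2fl library 1 or 2 or Smad3fl library 1 or 2. Cd44, the hyaluronan receptor, was at 335, 258 and 200.4 CPM against 86.9, 112 and 126 CPM (1.29 ± 0.17, adjusted p = 2.23e-05). Selplg, a ligand for selectins, was at 77.9, 66.8 and 91.7 against 237, 246 and 247 CPM (-1.63 ± 0.23, adjusted p = 4.25e-05).

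Rpl29 was uneven among the treated MyS3KO libraries, at 238, 57.1 and 63.6 CPM, where Ifi202b was at 0.490, 81.0 and 68.9 CPM. Library 1 was high for the first gene and low for the second. The untreated MyS3KO libraries were uneven as well, with 122 ± 85.8 CPM of Rpl29 and 64.4 ± 55.2 CPM of Ifi202b (SD, n = 3). This pair was chosen after its values were seen.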
